A study of Mus musculus with 18 samples.

Results

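Genes for 10 regulators of pre-mRNA splicing were followed through mouse fetal liver erythropoiesis by nascent RNA sequencing. The 10 members, matched by gene symbol among the 54232 gene identifiers of the deposited count table and chosen with earlier results of these data known, were *Srsf1*, *Srsf2*, *Srsf3*, *Srsf5*, *Srsf6*, *Srsf7*, *Mbnl1*, *Rbfox2*, *Ptbp1* and *Sf3b1*. Each symbol matched 1 identifier, and all 10 passed the filter on low counts.

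Splicing removes introns from pre-mRNA, and alternative splicing decides which exons a transcript keeps. SR proteins, the family to which the 6 *Srsf* genes belong, bind enhancer sequences in exons and recruit the splicing machinery, and their activity depends on phosphorylation by dedicated kinases. Proteins of the MBNL, RBFOX and PTB families bind mainly in or beside introns and favour or repress single exons according to position, while SF3B1 is part of the U2 snRNP that recognises the branch site of most introns. Erythroid cells are known for a programme of exon switches during maturation, which includes an exon of the membrane skeleton gene *Epb41* that RBFOX2 favours, and *SF3B1* and *SRSF2* are recurrently mutated in human myelodysplastic syndromes.

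Cells came from fetal livers of C57BL/6 embryos at e12.5-e13.5, with no genetic change or drug treatment in any group. Lineage-negative cells were sorted by CD71, the transferrin receptor, and Ter119, a surface marker of maturing erythroid cells, into S0-Low (CD71 negative by label, Ter119 negative), S0-Medium (CD71 medium, Ter119 negative), S1 (CD71 high, Ter119 negative), S2 (CD71 high, Ter119 medium) and S3 (CD71 high, Ter119 high), and a lineage-positive (Lin+) population was kept as well. Sorted cells rested for 6 h and then received 500 µM 4-thiouridine (4sU) for 45 min, so that RNA made in that window could be purified. Each of the 6 populations had 3 replicate libraries, 18 in all, and no source used here says whether replicates were separate litters, so that p-values measure the spread between these libraries. Sorted populations were measured in bulk, where fewer cells of a type and less RNA per cell cannot be told apart.

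Library totals ran from 9452476 counts (S0-Low replicate 3) to 40567976. All 6 stem and progenitor marker genes fell and all 6 maturing erythroid marker genes rose between S0-Low and S3 (edgeR adjusted p under 0.05). *Cd34* went from 80.1 to 149 normalized CPM in S0-Low to at most 0.135 in S3, and *Tfrc*, which encodes CD71, from between 277 and 419 to between 6372 and 6952. The Lin+ libraries carry the cell type label of the erythroid samples, but the 6 erythroid genes summed to only 199 to 246 there, below every S0-Low library (384 to 794), and 8 neutrophil and granulocyte progenitor genes, led by *Mpo*, summed to 3207 to 5782 with all 8 above 3 counts. The same 8 genes summed to 339 to 797 in S0-Low, with 6 above 3 counts, and to at most 2.43 in S3. The 7 genes for targets of the lineage antibodies summed to 496 to 696 in Lin+, with 5 of 7 above 3 counts, to 191 to 255 in S0-Low, with 3 of 7, and to 18.3 to 77.7 in S3, with 1 of 7. Of these, *Itgam* was listed at 0 in the 18 libraries, and *Ly6c1* reached at most 1 count. The share of these other cells in the results that follow was not tested.

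Levels are given as normalized CPM, counts scaled to a common library size by the library total and TMM, edgeR's factor that makes the bulk of genes comparable between libraries. The scaling matters here, because TMM factors were 0.579 to 0.735 in S3 and 1.098 to 1.275 in S0-Low. With library totals alone, the median of the 16555 tested genes (log2 fold change, S3 against S0-Low) moved from -0.54 to -1.36. Changes are therefore also given relative to that median gene, and ratios of genes within a library, which no scaling touches, are reported for the SR proteins.

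Gene limits are those of RefSeq on the GRCm38 assembly. *Srsf1* is at chr11:88046499-88053757, *Srsf2* at chr11:116849897-116853675 and *Srsf5* at chr12:80945495-80950507. *Srsf6* is at chr2:162931508-162937121, and *Srsf3* and *Srsf7* share a chromosome, at chr17:29032660-29043372 and chr17:80200080-80207369. *Mbnl1* spans chr3:60472559-60629750, *Rbfox2* chr15:77078990-77308434, *Ptbp1* chr10:79854432-79864435 and *Sf3b1* chr1:54985169-55027501. Some counts are uncertain through shared sequence. In an older annotation, GENCODE vM1, 18.4% of the 31-base stretches in *Srsf3* transcripts also occur in another gene (15.6% in *Gm12355*), as do 14.0% in *Srsf5* (12.9% in *Gm12966*), 11.9% in *Ptbp1* and 8.62% in *Srsf2*. For *Ptbp1* and *Srsf2* the leading partners, *Gm17134* and *Mfsd11*, lie on the opposite strand over the same locus. At most 1.22% was shared in the other 6 members.

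Promoter sequence is shown for *Srsf6*, *Srsf7* and *Ptbp1*, whose levels varied together across the erythroid libraries, and for *Srsf3*, whose level parted from that of *Srsf7*. Each stretch lies just upstream of the first RefSeq base of its gene in GRCm38.p6 and is written 5′ to 3′ on the gene's strand. They cover chr2:162931258-162931507 (plus strand) for *Srsf6*, chr17:80207370-80207503 (minus strand) for *Srsf7*, chr10:79854182-79854431 (plus strand) for *Ptbp1* and chr17:29032410-29032659 (plus strand) for *Srsf3*. Capitals mark matches to CCAAT (here as its complement), TATAAA or CACGTG, the letters read by NF-Y, by the TATA-binding protein and by E-box factors.
Srsf6: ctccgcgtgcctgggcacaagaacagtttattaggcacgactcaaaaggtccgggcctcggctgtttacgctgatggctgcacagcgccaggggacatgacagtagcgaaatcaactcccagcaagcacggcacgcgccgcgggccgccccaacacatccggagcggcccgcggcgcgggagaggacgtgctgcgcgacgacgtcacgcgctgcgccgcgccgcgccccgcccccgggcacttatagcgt
Srsf7: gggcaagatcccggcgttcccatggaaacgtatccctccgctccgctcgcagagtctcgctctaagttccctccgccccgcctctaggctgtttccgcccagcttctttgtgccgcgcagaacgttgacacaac
Ptbp1: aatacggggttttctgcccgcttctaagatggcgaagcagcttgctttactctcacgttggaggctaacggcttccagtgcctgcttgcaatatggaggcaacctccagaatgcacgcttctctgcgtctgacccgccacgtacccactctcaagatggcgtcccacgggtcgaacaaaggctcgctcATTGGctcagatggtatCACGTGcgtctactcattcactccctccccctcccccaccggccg
Srsf3: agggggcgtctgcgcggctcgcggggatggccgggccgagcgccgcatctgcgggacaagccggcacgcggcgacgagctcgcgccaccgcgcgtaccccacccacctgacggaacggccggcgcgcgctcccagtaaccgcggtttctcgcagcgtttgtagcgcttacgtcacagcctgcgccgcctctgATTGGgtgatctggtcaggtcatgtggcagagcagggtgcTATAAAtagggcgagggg

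The 3 genes that varied together shared no marked word in these stretches. *Srsf3* had a CCAAT and a TATAAA match, *Ptbp1* a CCAAT and a CACGTG match, and *Srsf6* and *Srsf7* none of the 3. In all, 6 words were searched on both strands in windows of 300 bases, from 250 before to 50 after the start that the promoter table gives, which exist for 9 members (10 windows, since *Mbnl1* has 2). By the gene limits above, 4 of these windows, those of *Srsf1* and *Srsf2* and both of *Mbnl1*, lie inside the gene and hold no base upstream of it. The GATA word, AGATAA or TGATAA, was in 0 of the 10 windows and in 18.6% of all 32851 windows. CCAAT was in 5 windows (37.4% of all), TATAAA in 3 (13.6%), CACGTG in 2 (7.15%), CCGGAA, an ETS factor word, in 4 (14.9%) and CCACACCC, a word of erythroid KLF sites, in 0 (3.56%). The 4 windows inside genes held 3 of the 5 CCAAT, 2 of the 3 TATAAA, 1 of the 2 CACGTG and 2 of the 4 CCGGAA windows. These matches describe letters only, and none overlapped another in the printed stretches. Those of *Ptbp1* and *Srsf3* also lie in the long noncoding genes *E130317F20Rik* and *Gm16196*, and that of *Srsf7* was ended where *Gemin6* begins.

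Per kilobase of annotated exon, the order of the members' means changed between the first and the last population. In S0-Low *Mbnl1* led at 192 ± 70.2 normalized CPM per kb (SD, n = 3), followed by *Srsf2* at 136 ± 45.7 and *Srsf7* at 108 ± 28.4, and *Srsf3* was at 40.9 ± 8.06. In S3 *Srsf2* led at 236 ± 60.6, *Mbnl1* was at 123 ± 16.7 and *Srsf1* at 114 ± 9.06. *Srsf7*, at 72.5 ± 11.1, had the lowest mean other than *Rbfox2*. Close to it were *Ptbp1* at 77.3 ± 14.9, *Srsf3* at 80.0 ± 28.0 and *Srsf6* at 83.0 ± 23.9, so that this rank lay within the spread. *Rbfox2* was far below the others throughout, at 1.13 ± 1.26 in S0-Low and 0 in S3. These per-kb levels use exon lengths of GENCODE vM1, which may not be the transcript set that was counted.

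**Figure D1:**
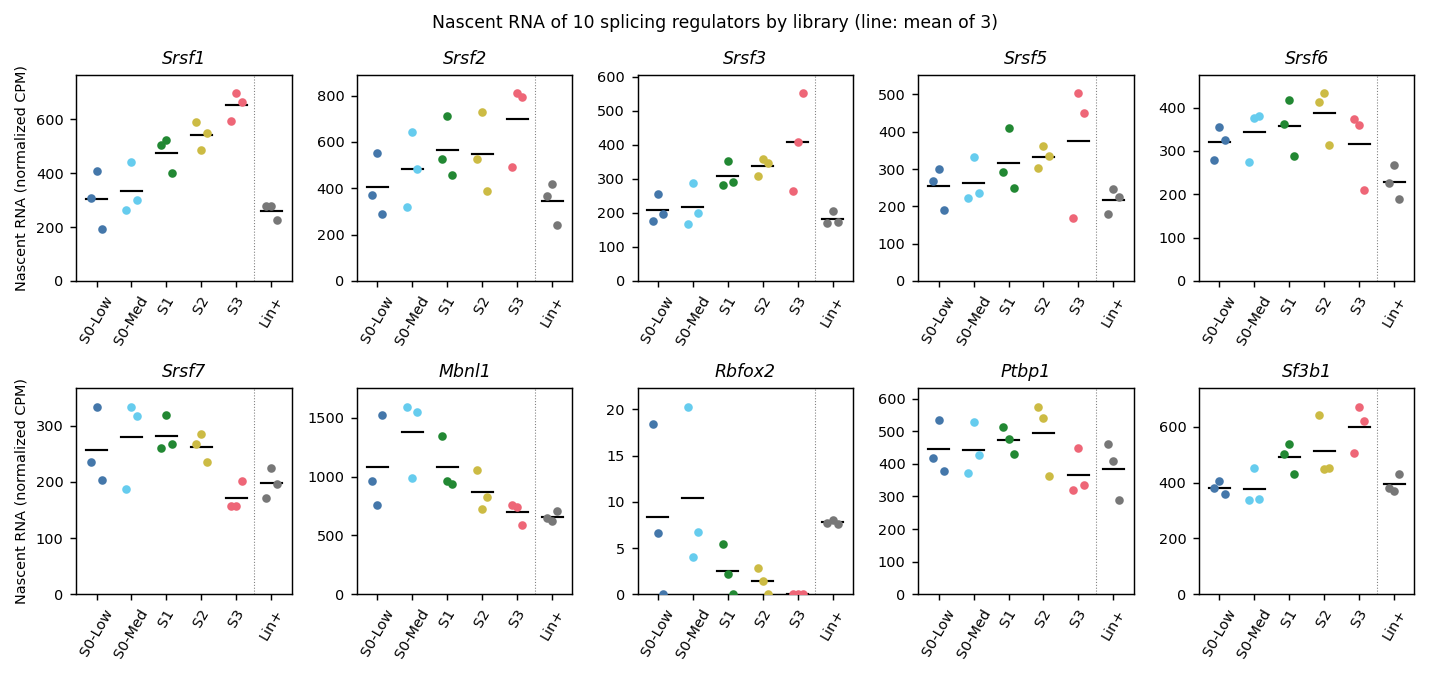
Nascent RNA of the 10 members in normalized CPM (y axes from 0) in the 3 libraries of each population (points, with a line at their mean); S0-Med is S0-Medium. In S3 the mean of *Srsf1* is 652 and that of *Srsf7* is 172, and *Rbfox2* is at 0 in the 3 S3 libraries.

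Among the SR proteins, *Srsf1*, which binds exonic enhancers and promotes exon inclusion, rose between S0-Low and S3. Its 3 libraries stood at 307, 407 and 194 normalized CPM in the S0-Low cells, at 505, 525 and 399 in S1 and at 595, 696 and 663 in S3. Every S3 library was above every other library, and each neighbouring pair of populations from S2 down overlapped. Between S3 and S0-Low the mean was 2.15 times as high (log2 fold change 1.105, SE 0.30, edgeR adjusted p = 0.0108, higher in 3 of 3 same-numbered pairs). That call was lost when only the 6 libraries compared were fitted (log2 fold change 0.92) or when library totals replaced TMM (0.27, adjusted p = 0.453). Over the alternatives its adjusted p ranged from 0.000957 to 0.453. Relative to the median gene, *Srsf1* was 1.64 higher on the log2 scale with TMM and 1.63 with library totals.

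*Srsf3*, the smallest SR protein, which also links splicing to mRNA export, rose over the same interval. Its levels were 176, 255 and 196 normalized CPM in S0-Low, 283, 354 and 290 in S1 and 265, 409 and 552 in S3. The S3 libraries spread about a mean of 409 ± 143 (SD, n = 3) but did not overlap those of S0-Low. The S3 mean was 1.95 times that of S0-Low (log2 fold change 0.97, SE 0.31, adjusted p = 0.0237). Leaving out S0-Low replicate 1, S0-Low replicate 3 or S3 replicate 3 gave 0.80, 0.88 and 0.67 and ended the call, with an adjusted p of up to 0.131. It also ended with library totals (0.081), without a filter (0.90), with at least 10 counts in every library (0.70) and with only the 6 libraries (0.77).

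*Srsf2*, an exonic enhancer binder long used to mark nuclear speckles, had 371, 553 and 288 normalized CPM in S0-Low and 491, 810 and 793 in S3. The ranges overlapped, and the log2 fold change of 0.79 (SE 0.36) did not pass the test (edgeR adjusted p = 0.0933). Its sign turned to -0.068 with library totals. *Srsf5*, another exonic enhancer binder, whose transcripts share sequence with *Gm12966*, had 169, 503 and 449 in S3 against 269, 300 and 191 in S0-Low (log2 fold change 0.56, SE 0.36, adjusted p = 0.238). S3 replicate 1 was thus below all S0-Low libraries, and without it the log2 fold change was 0.90 and passed (adjusted p = 0.0433).

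*Srsf6* and *Srsf7* did not share the higher S3 means of the other 4 SR genes. *Srsf6* stood at 279, 356 and 325 normalized CPM in S0-Low and at 374, 360 and 211 in S3, a log2 fold change of -0.023 (SE 0.29, edgeR adjusted p = 0.957). *Srsf7*, the SR protein with a zinc knuckle, had 236, 333 and 204 in S0-Low, 268, 285 and 235 in S2 and 157, 157 and 203 in S3. Its 3 S3 libraries were below all libraries of S0-Low and of S2, but neither difference passed (against S0-Low -0.58, SE 0.29, adjusted p = 0.118; against S2 -0.60, SE 0.29, adjusted p = 0.191). Against S0-Low it passed with DESeq2 (-0.68), with at least 10 counts in every library (-0.84) and with library totals (-1.44).

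The balance among the 6 SR genes within a library does not depend on scaling. These ratios and shares were chosen after the values were seen and are given without a test. In S0-Low, *Srsf7* took 14.7% ± 0.37 of the 6 genes' counts (mean and SD, n = 3 here and after). Its share was 14.5% ± 1.85 in S0-Medium and 12.4% ± 1.17 in S1. S2 had 10.9% ± 0.20, and S3 had 6.68% ± 1.18, with its 3 libraries below every other erythroid library. *Srsf1* went the other way, with a share of 17.0% ± 2.74 in S0-Low and of 25.3% ± 3.24 in S3. The mean share of *Srsf2* was between 22.4% and 26.4% in every population. In Lin+ the shares were 13.9% ± 1.76 for *Srsf7* and 18.3% ± 1.53 for *Srsf1*, nearer to S0-Low than to S3.

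The ratio of *Srsf7* to *Srsf3* counts separated the later populations. The S0-Low libraries had 1.04 to 1.34 and the S0-Medium libraries 1.11 to 1.60, which overlapped. It was 0.902 to 0.923 in the S1 libraries, 0.680 to 0.869 in those of S2 and 0.367 to 0.590 in those of S3, each below the population before it without overlap. In Lin+ it was 1.00 to 1.14. The mean log2 ratio was lower in S3 than in S0-Low by a difference of -1.48. The ratio of *Mbnl1* to *Srsf1* ran the same way, with a mean log2 value of 1.84 ± 1.05 (SD, n = 3) in S0-Low. The S1 value was 1.17 ± 0.27, the S2 value 0.67 ± 0.14 and the S3 value 0.089 ± 0.26. Here S0-Low, S0-Medium and S1 overlapped, and S1, S2 and S3 did not overlap one another. The ratios of *Mbnl1* to *Ptbp1* and of *Srsf6* to *Srsf5*, the other 2 of 4 computed, overlapped between all neighbouring populations and between S3 and S0-Low.

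**Figure D2:**
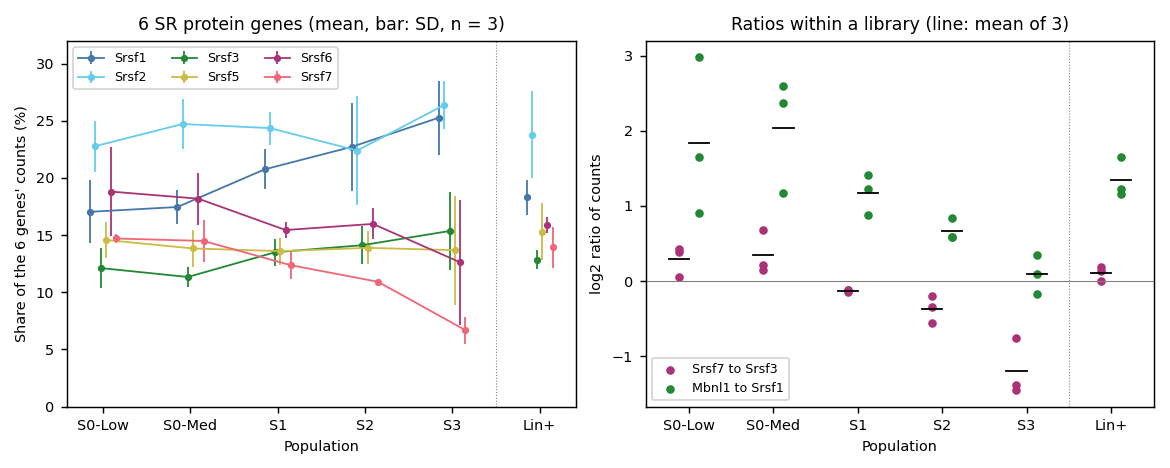
Left, the share (%) of each SR gene in the counts of the 6 genes, as mean and SD of 3 libraries per population; right, log2 ratios of counts within each library (points) with their means (lines). The mean *Srsf7* share is 14.7% in S0-Low and 6.68% in S3, and the *Srsf7* to *Srsf3* ratio is lowest in the 3 S3 libraries.

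*Mbnl1*, the muscleblind protein whose loss of function underlies splicing defects in myotonic dystrophy, was the member with the highest mean counts in S0-Low. Its libraries had 964, 760 and 1526 normalized CPM in S0-Low, 1594, 986 and 1550 in S0-Medium and 756, 744 and 588 in S3. The S3 libraries were below all libraries of both S0 populations. The log2 fold change from S0-Low to S3 was -0.64 (SE 0.32, edgeR adjusted p = 0.125) and did not pass, except with at least 10 counts in every library (-0.93) and with library totals (-1.48). Relative to the median gene it was -0.10 with TMM and -0.12 with library totals, so that its fold change lay close to that of the median gene.

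*Rbfox2*, which binds a UGCAUG element beside exons, was the one member that reached 0. Its raw counts were 713, 268 and 0 in the S0-Low libraries and 877, 175 and 231 in those of S0-Medium. The S1 libraries had 213, 86 and 0, the S2 libraries 66, 52 and 1, and each S3 library 0. Libraries within a population differed widely. S0-Low replicate 3, the shallowest of all with a floor of 3 counts at 0.317 CPM, had none. S1 replicate 3, with a total of 27734246 counts, had none either, and S2 replicate 3, with 25303249, had 1. The cause was not tested. The mean of 8.37 ± 9.32 normalized CPM (SD, n = 3) in S0-Low was at least 46.9-fold higher than S3, against a floor of 3 counts in each S3 library. Without S0-Low replicate 1 it was at least 18.7-fold higher, and without S0-Low replicate 3 at least 70.4-fold. With S3 at 0, *Rbfox2* entered the test only through the populations where it was higher, so that the p-values add no separate support. The edgeR adjusted p was 0.0166, and 0.00804 to 0.045 with 1 library left out. S3 was higher in 0 of 3 same-numbered pairs, with replicate 3 tied at 0 counts. With only the 6 libraries compared, or with at least 10 counts required in each, *Rbfox2* did not pass the filter and was not tested. Between S3 and S2 the difference did not pass in edgeR (adjusted p = 0.101) but did in edgeR without the filter on low counts and in DESeq2.

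*Ptbp1*, the polypyrimidine tract binding protein and mainly a repressor of exons, had no library set apart. It stood at 418, 535 and 379 normalized CPM in S0-Low, at 576, 542 and 362 in S2 and at 319, 448 and 334 in S3. All populations overlapped their neighbours, and the log2 fold change from S0-Low to S3 was -0.28 (SE 0.27, edgeR adjusted p = 0.444). Only library totals made it pass (-1.11).

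*Sf3b1*, the branch site subunit, was the one member of the core spliceosome. Its libraries had 381, 406 and 360 normalized CPM in S0-Low, 502, 537 and 430 in S1 and 505, 672 and 622 in S3. All S3 libraries were above all S0-Low libraries, yet the log2 fold change of 0.65 (SE 0.26) fell short of the threshold (edgeR adjusted p = 0.059). DESeq2 (0.52) and the fit with all 18 libraries called it, among other settings, and with library totals its sign turned (-0.20).

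Step by step, no member passed the test before S3. In S0-Medium against S0-Low, S1 against S0-Medium and S2 against S1, edgeR called 0 of 10 members, with 0 at an unadjusted p under 0.05 and 0 in DESeq2. The percentage called among all tested genes was 0 in each of these steps too, although 539, 1135 and 667 genes had an unadjusted p under 0.05 and DESeq2 called 57, 417 and 148. With the replicate number as a block these 0 calls became 23, 57 and 0, and the members stayed at 0. The members' median log2 fold changes were 0.11, 0.16 and 0.066. In S3 against S2, edgeR called 0 members, where 3.26% of tested genes were called higher and 6.09% lower. With the replicate number as a block the count of members stayed 0, while that of all genes went from 1548 to 3074. At an unadjusted p under 0.05 there was 1 member (*Rbfox2*), beside 26.4% of all tested genes. It was the 1 member that DESeq2 called, beside 3354 genes in all. Library totals called *Srsf7* and *Ptbp1* lower and took the share of higher among all called genes from 34.9% to 11.3%. *Srsf1* was higher in S3 than in S2 without overlap (8.99% of tested genes were), and *Srsf7* and *Rbfox2* were lower (14.2%).

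Over the whole course, S3 against S0-Low, 2 members were called higher (*Srsf1*, *Srsf3*) and 1 lower (*Rbfox2*). *Rbfox2* entered that test only through the populations where it was higher. Of all tested genes 13.4% were called higher and 22.4% lower, so neither count stands apart from the background for 10 genes. With library totals the split over all genes went from 37.4% higher among 5932 called to 15.7% among 7384, and that of the members from 2 higher and 1 lower to 0 higher and 5 lower (*Srsf6*, *Srsf7*, *Mbnl1*, *Rbfox2*, *Ptbp1*). Libraries did not overlap for 3 members that were higher (*Srsf1*, *Srsf3*, *Sf3b1*) and 2 that were lower (*Srsf7*, *Mbnl1*), against 16.6% and 25.9% of all tested genes. The members' median log2 fold change was 0.27, beside -0.54 over all genes. Under either scaling 7 members were above the median gene and 3 below it (*Srsf7*, *Mbnl1*, *Rbfox2*). A change of scaling moves the members and the median gene nearly together, so that this is not a separate check. With only the 6 libraries in the fit 0 of the 9 members that passed the filter were called, beside 3834 genes in all. DESeq2 called 5 members (3 higher, 2 lower), beside 7504 genes in all (2527 higher, 4977 lower).

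**Figure D3:**
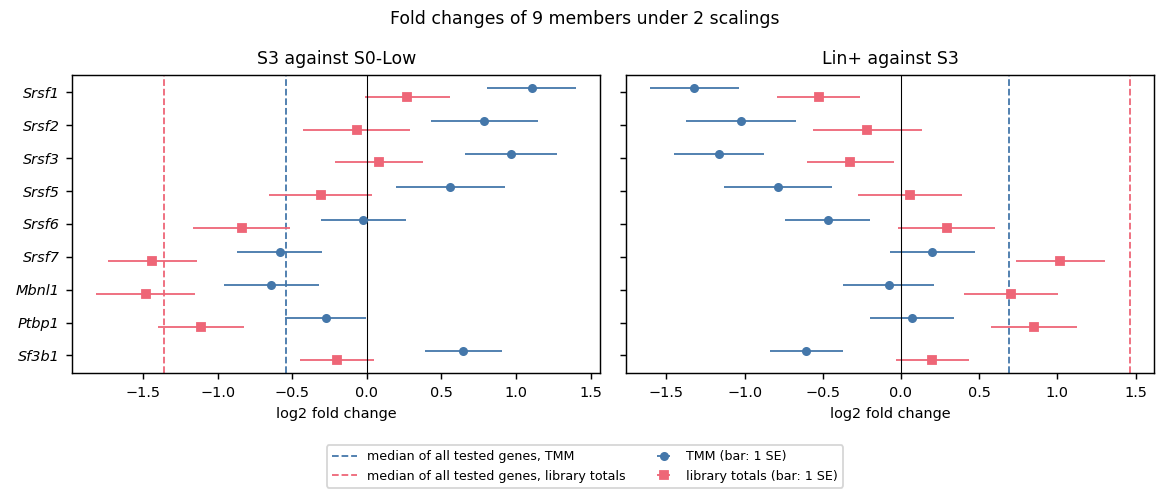
Log2 fold changes of 9 members (*Rbfox2* is left out because S3 is at 0) with bars of 1 SE, with TMM (circles) and with library totals (squares), for S3 against S0-Low and Lin+ against S3. Dashed lines mark the median of all tested genes, -0.54 and -1.36 in the left panel. The members lie at a similar distance from it under both scalings, because a library's scaling moves all its genes alike.

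No member passed the test between Lin+ and S0-Low. In that comparison edgeR called 0 of 10 members and DESeq2 0, where edgeR called 0.496% of 17755 tested genes higher and 0.22% lower. At an unadjusted p under 0.05 there was 1 member (*Mbnl1*), beside 9.85% of all tested genes. The replicate block left the members at 0 and took all genes from 127 to 342. *Mbnl1* had 648, 622 and 708 normalized CPM in Lin+, below every S0-Low library, but the log2 fold change of -0.72 (SE 0.29) did not pass (adjusted p = 0.382). *Srsf6*, with 226, 268 and 189, was likewise below S0-Low without overlap (-0.49, SE 0.27, adjusted p = 0.64). No member was higher without overlap (15.7% of tested genes were), and these 2 were lower (6.96% were). The members' median was -0.22, beside 0.021 for all genes. *Rbfox2* had 230, 352 and 368 counts in Lin+, 7.82 ± 0.24 normalized CPM (SD, n = 3), and lay closer together than the S0-Low libraries.

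Against S3, Lin+ was lower in 4 members and higher in 1. *Srsf1* was at 278, 278 and 226 normalized CPM in Lin+, 0.400 times its S3 mean (log2 fold change -1.32, SE 0.28, edgeR adjusted p = 0.00132). *Srsf3* (-1.16, SE 0.29, adjusted p = 0.00401), *Srsf2* (-1.02, SE 0.35, adjusted p = 0.0262) and *Sf3b1* (-0.61, SE 0.24, adjusted p = 0.0467) were also called lower. *Rbfox2* was at least 43.9-fold higher in Lin+ (adjusted p = 0.00787), but with S3 at 0 it entered the test only through the populations where it was higher. Among all tested genes 28.2% were called higher and 14.1% lower.

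The calls against S3 depended on single libraries and on scaling. Without Lin+ replicate 1, Lin+ replicate 3, S3 replicate 2 or S3 replicate 3 the count fell from 5 to 3, as *Srsf2* and *Sf3b1* dropped out, and *Srsf1*, *Srsf3* and *Rbfox2* were called each time. *Sf3b1* also lost its call without Lin+ replicate 2, with RLE factors, in DESeq2, without a filter, with at least 10 counts in every library and with only the 6 libraries, and *Srsf2* in these last 2. *Rbfox2*, which passed the filter only through the populations where it was higher, was not tested with at least 10 counts in every library. With library totals 3 members were called higher (*Srsf7*, *Rbfox2*, *Ptbp1*) and 0 lower, and the split of all genes went from 66.7% higher to 84.2%. Relative to the median gene, the 9 members other than *Rbfox2* were 0.49 to 2.01 lower in Lin+ with TMM, and 0.45 to 1.99 lower with library totals. This comparison and that of S3 with S0-Low share the S3 libraries.

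The wider splicing machinery was read from 7 lists of 116 other genes, of which 115 matched an identifier. In S3 against S0-Low, 18 of 110 tested were called higher (16.4%) and 8 lower (7.27%), with a median log2 fold change of 0.18, beside 13.4%, 22.4% and -0.54 over all tested genes. In S3 against S2, 4 of 110 rose (*Clk3*, *Ptbp3*, *Mbnl2* and *Rbm38*) and 4 fell (*Srpk1*, *Snrpd3*, *Celf2* and *Khdrbs3*). That was 3.64% each way, beside 3.26% and 6.09% of all tested genes. *Celf2* and *Khdrbs3*, near 0 in S3, passed the filter only through the populations where they were higher. A minimum of 10 counts per library gave 4 higher and 2 lower calls, so the even split was not kept. With library totals all 4 rises were lost, and the calls became 0 higher and 19 lower. With only the 6 libraries 0 genes were called. The 8 calls became 22 with the replicate block and 13 with DESeq2, but 5 or fewer without S2 replicate 1 (1), S2 replicate 2 (2), S3 replicate 1 (5) or S3 replicate 3 (2). Of the other splicing genes edgeR called 0 in the 3 earlier steps and in Lin+ against S0-Low. In Lin+ against S3, 4 of 111 were called higher (*Srpk1*, *Srpk2*, *Celf2* and *Khdrbs3*) and 27 lower, shares of 3.6% and 24.3% beside 28.2% and 14.1% of all genes. With library totals these counts became 4 higher and 38 lower for S3 against S0-Low, and 24 higher and 4 lower for Lin+ against S3. Without S0-Low replicate 1 or S3 replicate 3 the 26 calls of S3 against S0-Low fell to 16 and 15.

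Of 8 tested kinases that phosphorylate SR proteins, 4 rose (50%) and 2 fell (25%) between S0-Low and S3, beside 13.4% and 22.4% of all tested genes. *Clk3*, a CLK kinase of the nucleus, went from 97.7 ± 23.4 to 667 ± 387 normalized CPM (SD, n = 3; log2 fold change 2.77, SE 0.51, edgeR adjusted p = 0.000826). *Clk1* (1.75, adjusted p = 0.0288) and *Dyrk1a* (1.62, adjusted p = 0.00496) rose as well, as did *Clk4* (1.32). *Srpk1*, the main cytoplasmic SR protein kinase, fell from 187 ± 113 to 31.7 ± 20.1 (log2 fold change -2.56, SE 0.67, adjusted p = 0.00834), and *Srpk2* fell too (adjusted p = 0.0418). With library totals *Clk3* (1.85) and *Srpk1* (-3.30) stayed past the threshold in the same direction, and *Clk1* and *Dyrk1a* did not pass.

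Of 6 other SR and TRA2 genes 2 rose and 0 fell, of 9 other MBNL, RBFOX, PTB and CELF genes 1 rose and 1 fell, and of 21 other regulators 5 rose and 3 fell. Beside them stand the same 13.4% and 22.4% of all tested genes. *Srsf4*, an SR protein, rose (1.19, SE 0.30, adjusted p = 0.00646), and so did *Tra2b*, an SR-like activator (0.82, adjusted p = 0.0287). With library totals *Srsf4* (0.33) was not called, and the sign of *Tra2b* turned (-0.053). *Ptbp3*, a paralog of *Ptbp1*, rose from 293 ± 130 to 691 ± 60.1 normalized CPM (1.23, SE 0.35, adjusted p = 0.0141), but with library totals it was not called (0.37). *Celf2*, a regulator that often acts against MBNL proteins, fell from 263 ± 106 to 0.209 ± 0.132 (adjusted p = 6.15e-06). *Rbm38*, which also favours inclusion of an exon of *Epb41*, rose from 207 ± 38.3 to 2248 ± 1281 (3.44, SE 0.67, adjusted p = 0.00121). Of the other regulators, *Rbm5*, *Rbm10*, *Rbm39* and *Srrm1* rose by 1.04 to 1.203 on the log2 scale. *Khdrbs3* fell from 24.9 ± 15.9 to 0.210 ± 0.364 normalized CPM, and *Tia1* (-1.76) fell as well. The other lower call was *Esrp2*, which was low, at 1.08 normalized CPM in S0-Low and 0 in the S3 libraries. *Celf2*, *Khdrbs3* and *Esrp2*, at or near 0 in S3, passed the filter only through the populations where they were higher.

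The hnRNP and spliceosome lists are set beside the 13.4% and 22.4% of all tested genes called higher and lower. Of 23 hnRNP genes 4 rose (17.4%), *Hnrnpul2* (1.26), *Hnrnpul1* (0.95), *Hnrnpa2b1* (0.87) and *Hnrnpr* (0.77), and *Syncrip* fell (-1.01). Of 24 genes of U1, the tri-snRNP and the Sm core, *Luc7l2*, a U1-associated factor, rose (1.51, SE 0.27, adjusted p = 0.000595) and *Snrpd3*, an Sm protein, fell (-1.12). Of 19 U2 and branch site genes, the list closest to *Sf3b1*, 1 rose. It was *Zrsr1*, related to the small U2AF subunit, with a log2 fold change of 2.78 but S3 libraries at 64.9, 176 and 512 normalized CPM. With library totals *Luc7l2* and *Zrsr1* still passed, and *Hnrnpul2*, *Hnrnpul1*, *Hnrnpa2b1* and *Rbm5* did not. *Clk4*, *Srpk2*, *Hnrnpr*, *Mbnl2*, *Rbm10*, *Rbm39*, *Srrm1* and *Esrp2* were named after their values were seen, and were not recomputed singly under the alternatives.

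**Figure D4:**
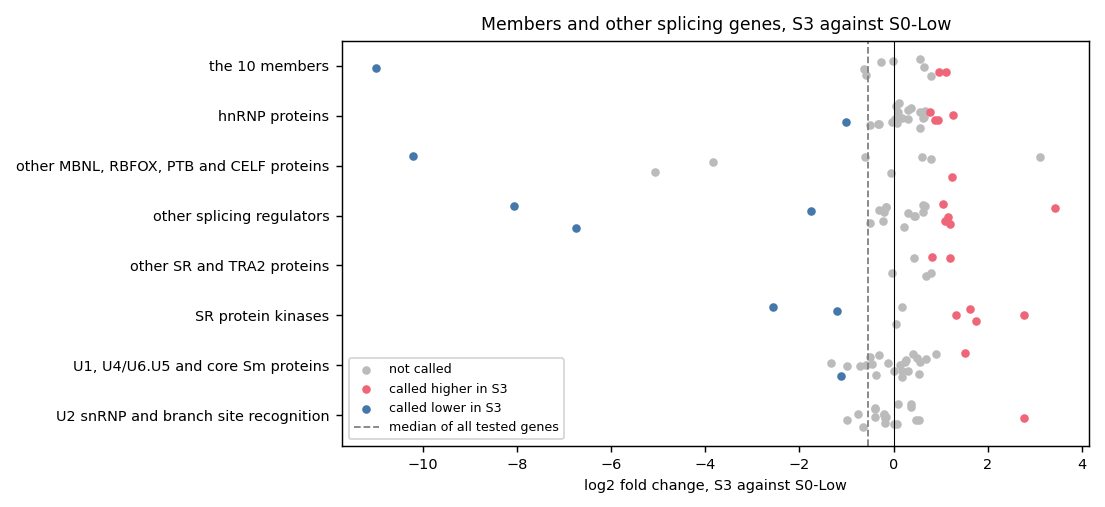
Log2 fold changes in S3 against S0-Low for the 10 members and the 110 other tested splicing genes by list, 1 point a gene, coloured where called; point heights are jittered. Of the other genes 18 are called higher and 8 lower, and the kinase list has 6 of 8 called.

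Covariation across the 15 erythroid libraries is given as Pearson correlations of log2(CPM + 0.5), which share library scaling and population structure. *Srsf6*, *Srsf7* and *Ptbp1* correlated at 0.81 to 0.91 with one another. *Mbnl1* correlated at 0.68 to 0.71 with these 3, and *Sf3b1* at 0.70 with *Ptbp1*. *Srsf2*, *Srsf3* and *Srsf5* correlated at 0.68 to 0.74 with one another. *Srsf1* and *Mbnl1* ran against each other (-0.44). Likeness to other genes was ranked over all 18 libraries by the same measure among 15369 candidate genes, and the 3 highest are given for 9 members. *Srsf1* was most like *Eif2s2* (0.91), a translation initiation factor subunit, *Slc19a2* (0.89) and *Pgrmc2* (0.88). *Srsf2* was most like *Thoc4* (0.90), an mRNA export adaptor, *Nol7* (0.89) and *Hnrnpa2b1* (0.88), and *Srsf3* like *Usp1* (0.91), *Ercc6l* (0.87) and *Gm10110* (0.86). *Srsf5* followed *Gm9781* (0.92), *Pin4* (0.91) and *Gm12183* (0.90). *Srsf6* was closest to *Nop58* (0.95), a core protein of box C/D snoRNPs, *Nhp2l1* (0.95) and *Thumpd3* (0.95), and *Srsf7* to *Exoc8* (0.94), *Snw1* (0.94) and *Sephs2* (0.93). The highest value of all was that of *Ptbp1* with *Rpl15* (0.98), a ribosomal protein gene, ahead of *Slc35a4* (0.98) and *Cct6a* (0.97). *Rbfox2* was most like *Bcl2* (0.97), *Plxna3* (0.95) and *Faah* (0.95), and *Mbnl1* like *Lrp11* (0.90), *Zfp451* (0.89) and *Mbtd1* (0.89).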

How the data were processed

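The 18 libraries hold nascent RNA of 6 sorted populations (4sU-seq). The authors made stranded libraries with 14 PCR cycles (no molecular identifiers are described) and deposited whole-number counts per gene, not normalized. The submitters' processing notes name kallisto 0.43.0 and GRCm38. The transcript set and the use of strand in counting are not given in the sources used here. kallisto assigns reads by shared stretches of bases, so that genes with similar copies share counts.

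Populations and replicate numbers were taken from the labels. Analysis used R 4.3.3, edgeR 4.0.16 (TMM, filterByExpr, two-sided quasi-likelihood test, Benjamini-Hochberg over all tested genes, called at an adjusted p under 0.05), DESeq2 1.42.0, Python 3.11.15, pandas 2.3.3 and matplotlib 3.10.9. One fit took the 15 erythroid libraries (16555 genes), and another took all 18 for the Lin+ comparisons (17755 genes). The common BCV, the biological coefficient of variation, was 0.795 in the first and 0.771 in the other. A total of 9452476 to 40567976 counts per library puts a floor of 3 counts at 0.074 to 0.317 CPM. Counting floors cover counting error only. Same-group libraries differed beyond sampling noise in all 18 pairs (chi-square per degree of freedom at least 79.3).

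Like the members, the lists of other splicing genes and markers were chosen when earlier results of these data were known. All 10 members were named. From each other list, the up to 4 called genes with the largest change in S3 against S0-Low and a mean of at least 100 normalized counts were named, and, after their values were seen, the other genes of calls that numbered 5 or fewer. For each member the 3 genes with the highest correlation were to be named, and those of *Sf3b1* are not reported here. *Mbnl1* to *Srsf1* and *Srsf7* to *Srsf3* were chosen among 4 ratios computed. Promoter sequences came from RefSeq (GRCm38.p6), and *Rbfox2*, although it has RefSeq gene limits, had no promoter window. Shared stretches and exon lengths came from GENCODE vM1 (NCBIM37).

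Same-numbered libraries deviated together in 5 comparisons, with correlations of deviations of at least 0.17 in each pair, but not in S3 against S0-Low (lowest 0.0806) or Lin+ against S3 (lowest 0.0905). What a shared number stands for is not given in the sources used here. The fit without that block was the main one. The edgeR script was also run on simulated counts with known changes. Alternatives were DESeq2, RLE factors, library totals, no filter, at least 10 counts in every compared library, a robust fit, the replicate block, a fit of the 6 libraries alone, a fit of all 18, globin genes left out, and each library left out. Globin genes left out of the Lin+ comparisons and the all-gene median under library totals were added after seeing the data.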

Additional observations from a re-analysis of the deposited data

How the results depend on the processing

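Library totals changed the sign of more log2 fold changes than any other setting, and the members' calls rested on small numbers of libraries. Of 562 fold changes recomputed under other settings, 482 kept their direction and side of the threshold, 41 lost a call, 18 gained one and 21 changed sign. With 1 library left out these were 298 of 354, 43, 2 and 11. A value that changed sign was counted only as such, even where it also lost its call. *Tra2b* in S3 against S0-Low with library totals was such a value. The cause of these shifts was not tested. With library totals the number of members called was 2 in S3 against S2, 5 in S3 against S0-Low and 3 in Lin+ against S3. It was 1 in S3 against S2 without a filter and with DESeq2, 5 in S3 against S0-Low with the replicate block and with DESeq2, and 0 there with only the 6 libraries compared. In Lin+ against S3 it was 2 with a minimum of 10 counts per library, 3 with only the 6 libraries, and 3 to 6 with 1 library left out. The replicate block added *Srsf2* and *Sf3b1* in S3 against S0-Low and *Srsf5* in Lin+ against S3, 2 comparisons whose numbers were not shown to pair the libraries, and it changed no other members' count by over 1.5 times.

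Library totals reversed the S3 against S2 log2 fold changes of *Srsf1* (-0.23), *Srsf2* (-0.20), *Srsf3* (-0.27), *Srsf5* (-0.38) and *Sf3b1* (-0.29). In S3 against S0-Low they reversed *Srsf2* (-0.068), *Srsf5* (-0.31), *Sf3b1* (-0.20) and *Tra2b* (-0.053), and in Lin+ against S3 *Srsf5* (0.055), *Srsf6* (0.29), *Mbnl1* (0.70) and *Sf3b1* (0.20). *Mbnl1* in Lin+ against S3 also turned positive with RLE factors (0.12), without a filter (0.015), with a minimum of 10 counts (0.30), with only the 6 libraries (0.16) and with DESeq2 (0.12). *Rbfox2* in Lin+ against S0-Low turned with RLE factors (0.027), the replicate block (1.60) and DESeq2 (0.030).

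Leaving out 1 library changed the sign of log2 fold changes near 0. In S3 against S2 *Srsf3* ranged from -0.016 to 0.50 and *Srsf5* from -0.11 to 0.51. In S3 against S0-Low *Srsf6* ranged from -0.19 to 0.18. In Lin+ against S0-Low the ranges were -0.46 to 0.056 for *Srsf1*, -0.43 to 0.059 for *Srsf2*, -0.69 to 1.21 for *Rbfox2* and -0.022 to 0.090 for *Sf3b1*. In Lin+ against S3 they were -0.18 to 0.034 for *Mbnl1* and -0.066 to 0.28 for *Ptbp1*.

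Counts over all genes moved by over 1.5 times in several settings. In the 3 early steps, 0 calls became 53, 327 and 77 without a filter, 23, 57 and 0 with the block, 0, 125 and 2 with all 18 libraries fitted, and 57, 417 and 148 with DESeq2. In S3 against S2, 1548 calls became 2552 with library totals, 2546 without a filter, 3074 with the block, 98 with only the 6 libraries and 3354 with DESeq2. In S3 against S0-Low, 5932 became 3034 with a minimum of 10 counts and 3834 with only the 6 libraries. In Lin+ against S0-Low, 127 became 393 without a filter, 342 with the block, 57 with a minimum of 10 counts, 573 with only the 6 libraries and 665 with DESeq2. In Lin+ against S3, 7501 became 3429 with a minimum of 10 counts. The calls of other splicing genes went from 26 to 42 in S3 against S0-Low with library totals and with the block, and to 11 with only the 6 libraries. In Lin+ against S3 they went from 31 to 19 (5 higher, 14 lower) with a minimum of 10 counts. A member without a call may still have changed.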
